A study of Mus musculus with 8 samples.

Results

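The 8 genes described here encode scaffold proteins of the postsynaptic density, the protein-dense layer under the membrane of excitatory synapses. They were chosen by name, as the rows of the count table for Dlg1, Dlg2, Dlg3, Dlg4, Shank1, Shank2, Shank3 and Dlgap1, and all 8 were found once each among 46078 gene entries. All 8 were among the 15859 genes with enough counts to be tested. RNA came from hippocampus, the forebrain region rich in excitatory synapses, of 9-week-old mice on the C57BL/6J strain. The WT group held 4 libraries of wild-type mice, and the Cre group held 4 libraries of mice carrying the Tg(Camk2a-cre)2Gsc transgene (CamiCre, Cre+/-), in which Camk2a regulatory DNA directs the recombinase to forebrain excitatory neurons. No floxed allele is named in either group, and nothing in the labels ties a library to its own animal, so the tests measure the spread between these libraries, which may be technical. The comparison addressed whether the Cre transgene by itself goes with other transcript levels in hippocampus.

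At an excitatory synapse, the Dlg proteins (membrane-associated guanylate kinases, MAGUKs) bind the tails of NMDA receptors and of AMPA receptor auxiliary subunits through PDZ domains. Dlgap proteins bind the guanylate kinase domain of the Dlg proteins and the PDZ domain of the Shank proteins, and Shank proteins reach further into the spine, to Homer and the actin cytoskeleton. The 3 layers together hold receptors opposite the release sites, and Dlg4 (PSD-95) is the best known marker of this structure.

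Because the Dlg and Shank genes are paralogs, it matters whether a read can be assigned to a single member. For each family, the stretch of 60 coding bases shown has the fewest summed differences between a reference gene (Dlg4 or Shank3) and the other members. Only stretches inside a single exon of the transcript with the longest coding sequence were searched, so a more alike stretch may exist. The stretch was read from GENCODE mouse release M21 (GRCm38, all on the plus strand), with capitals at the positions where members of the family differ. In the Dlg family it lies in the part coding for the second PDZ domain, at chr16:31793531-31793590 (exon 11), chr7:91940026-91940085 (exon 12), chrX:100772850-100772909 (exon 6) and chr11:70031382-70031441 (exon 9), in the order of the genes.
Dlg1: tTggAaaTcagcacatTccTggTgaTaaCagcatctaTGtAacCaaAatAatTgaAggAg
Dlg2: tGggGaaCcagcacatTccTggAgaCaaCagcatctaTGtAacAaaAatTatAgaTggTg
Dlg3: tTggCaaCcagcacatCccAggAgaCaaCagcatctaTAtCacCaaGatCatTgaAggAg
Dlg4: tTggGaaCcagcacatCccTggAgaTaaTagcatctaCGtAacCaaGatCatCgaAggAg

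In this stretch 17 of the 60 positions differed among the 4 genes, and any pair differed at 8 (Dlg3 and Dlg4) to 12 (Dlg2 and Dlg3) of them. In the Shank family the corresponding stretch lies in the part coding for the ankyrin repeats, at chr7:44319700-44319759 (exon 8), chr7:144081860-144081919 (exon 8) and chr15:89503854-89503913 (exon 7), and 15 positions differed.
Shank1: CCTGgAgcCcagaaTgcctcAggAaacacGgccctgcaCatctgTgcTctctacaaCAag
Shank2: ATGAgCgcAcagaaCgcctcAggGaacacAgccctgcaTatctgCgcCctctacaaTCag
Shank3: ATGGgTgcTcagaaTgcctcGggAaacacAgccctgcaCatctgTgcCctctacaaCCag

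The longest run of coding bases shared without a difference was 26 between Dlg2 and Dlg3, between Dlg2 and Dlg4 and between Shank1 and Shank3, against reads of 150 bases. The Dlg2 and Dlg4 run was ggcctgggcttcaacattgtgggcgg, and the Shank1 and Shank3 run was ctgctggacaaggggctggaccccaa. No stretch of 75 bases in any annotated transcript of the 8 genes occurred in another of them (0 in each). Stretches of 75 bases shared with other genes made up 0.00% of those in Dlg3 and Shank2 and up to 2.80% in Shank1, where most lay opposite the antisense gene 1700008O03Rik. That gene overlaps 339 exonic bases of Shank1 on the opposite strand and had 26 to 57 counts per library. Gm15609 overlaps 271 bases of Shank3 in the same way and had 5 to 12 counts. The strand setting of the counting is not given in the sources used here, so reads of these overlaps cannot be assigned with certainty, but they cover 3.22% of the exonic bases of Shank1 and 2.95% of those of Shank3.

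The 8 genes are spread over 6 chromosomes. Dlg1 lies on chromosome 16 (31663443 to 31875129), Dlg2 on chromosome 7 (90476672 to 92449247), Dlg3 on the X chromosome (100767722 to 100818410) and Dlg4 on chromosome 11 (70016942 to 70047522). Shank1 (44310253 to 44360572) and Shank2 (144001928 to 144424494) are on chromosome 7, Shank3 on chromosome 15 (89499623 to 89560261) and Dlgap1 on chromosome 17 (69969073 to 70821413), all GRCm38. Their spans ran from 30.6 kb for Dlg4 to 1973 kb for Dlg2, and their annotated exons, merged, from 5844 bases for Dlg3 to 17890 bases for Dlgap1. The GC content of the longest coding sequence was 45.5% in Dlg1 and 46.3% in Dlg2, 53.7% to 58.9% in Dlg3, Dlg4, Dlgap1 and Shank2, and 63.6% in Shank1 and 64.6% in Shank3.

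Library totals ran from 21339996 to 27826871 counts. Members had 1972 counts (Dlg1 in Cre replicate 2) to 25418 counts (Dlg4 in Cre replicate 3) in a library. Defining markers of hippocampal principal neurons (8 of 8 with counts) summed to 6968 to 7423 CPM in WT and 6953 to 7433 CPM in Cre, where CPM is a gene's counts per 1000000 counts of the library after TMM normalization. Most of this sum was Camk2a (mean 4652 CPM in WT and 4669 CPM in Cre), the gene whose regulatory DNA the transgene carries. Of the 8 markers, 4 had log2 fold changes above 0 (median -0.004). WT replicate 1 stood apart by choroid plexus markers, which summed to 1004 CPM there and to 25.4 to 37.4 CPM in Cre. Summed astrocyte and microglia markers were higher in the Cre group, most of all in Cre replicate 1, with values given beside the members' pattern. Summed oligodendrocyte markers overlapped between the groups. So did those of oligodendrocyte precursors, at 224 to 237 CPM in WT and 213 to 256 CPM in Cre. In bulk tissue, fewer cells of a type and less RNA per cell cannot be told apart.

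No scaffold gene differed between Cre and WT hippocampus past the threshold, and the 95% confidence intervals of the 8 differences all lay between -9.59% and 5.57% of the WT level. Of the members 0 passed an adjusted p of 0.05 in edgeR's quasi-likelihood test (Benjamini-Hochberg over all 15859 genes; adjusted p = 0.999 for each), against 0.0315% of all genes tested. At an unadjusted p under 0.05 there were also 0, against 3.5% of all genes, and 0 members had groups that did not overlap, against 2.31% of all genes. DESeq2 and limma voom gave 0 and 0 members at either level. A p that misses the threshold does not show equal levels, so each gene is given with its values and the interval of its difference.

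Among the Dlg genes, Dlg4, which encodes PSD-95, had the highest CPM. It stood at 920, 881, 892 and 934 CPM in WT replicates 1 to 4 and at 888, 918, 909 and 939 CPM in Cre replicates 1 to 4. The lowest library was WT replicate 2 and the highest was Cre replicate 4, and the groups overlapped over most of their range. The means were 907 ± 24.6 and 913 ± 21.1 CPM (SD, n = 4 each), with a log2 fold change of 0.01 (SE 0.03). The 95% confidence interval ran from -3.83% to 5.57%.

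Dlg2, which encodes PSD-93, a close relative that also clusters receptors and potassium channels, had 262, 268, 287 and 275 CPM in the WT libraries and 251, 284, 267 and 255 CPM in the Cre libraries. Cre replicate 1 and Cre replicate 4 were the lowest libraries, while Cre replicate 2 was above 3 of the 4 WT libraries. The log2 fold change was -0.05 (SE 0.05), the interval from -9.50% to 3.66%. Its distance from 0 was the largest of the 8 genes and equalled about its own standard error.

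Dlg3, which encodes SAP102, the member known for its role at young synapses, had 240, 237, 229 and 234 CPM in WT and 222, 235, 213 and 249 CPM in Cre. The Cre libraries held both the lowest and the highest value, so the SD was 15.7 CPM in Cre and 4.44 CPM in WT around means of 230.0 and 235 CPM. The log2 fold change was -0.03 (SE 0.05; -8.75% to 5.02%). Without Cre replicate 3, the lowest library, it was 0.0042.

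Dlg1, which encodes SAP97, a scaffold of epithelial junctions as well as of AMPA receptors, had the lowest CPM of the 8. It had 94.6, 103, 103 and 93.5 CPM in WT and 90.1, 93.2, 101 and 99.0 CPM in Cre, with overlapping groups. The log2 fold change was -0.04 (SE 0.05), and its interval, -9.59% to 5.23%, was the widest of the set.

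Shank1 had 799, 823, 835 and 861 CPM in WT and 811, 837, 838 and 850 CPM in Cre, so the Cre libraries lay inside the WT range. Its log2 fold change was 0.01 (SE 0.03; -4.15% to 5.40%). Shank3, the Shank best known from human synaptic disorders, had 449, 431, 457 and 479 CPM in WT and 435, 454, 441 and 465 CPM in Cre, again inside the WT range. Its log2 fold change was -0.02 (SE 0.04; -6.72% to 4.68%). Shank2 had 258, 259, 266 and 276 CPM in WT and 250.0, 258, 256 and 264 CPM in Cre. Here 2 of the 4 Cre libraries, replicates 1 and 3, lay below all WT libraries, and the other 2 lay inside the WT range. The log2 fold change was -0.04 (SE 0.04; -8.04% to 2.39%).

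Dlgap1, which encodes the linker GKAP between the Dlg and Shank layers, had 788, 793, 812 and 812 CPM in WT and 750.2, 799, 771 and 802 CPM in Cre. Cre replicates 1 and 3 lay below all WT libraries and Cre replicates 2 and 4 inside the WT range. Its log2 fold change was -0.04 (SE 0.03; -7.07% to 2.08%). Its unadjusted p in the edgeR test, 0.246, was the smallest of the 8, just under the 0.247 of Shank2. Exact permutation tests on log2 CPM, 2-sided, gave p from 0.171 (Shank2) to 0.714 (Shank1) over the 8 genes, where the smallest possible with 4 libraries against 4 is 0.0286.

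**Figure D1:**
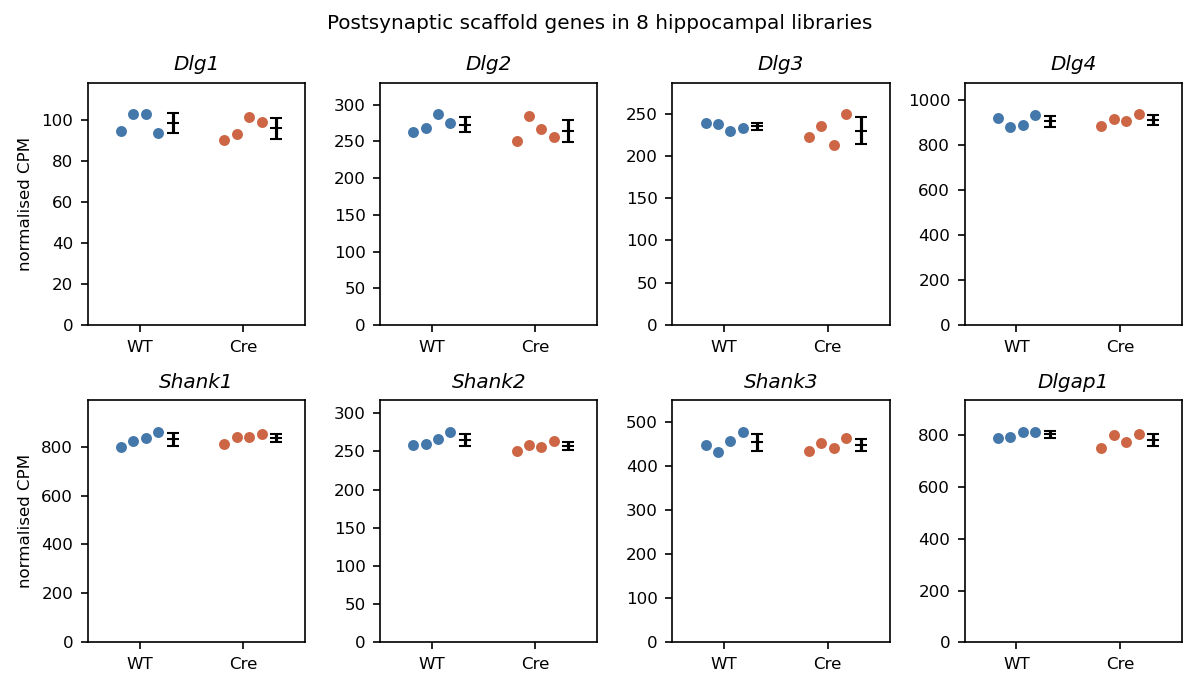
Normalised CPM of the 8 scaffold genes, 1 panel per gene, each point 1 library (left to right, replicates 1 to 4) and the black bar the mean ± SD of 4 libraries; the vertical axes start at 0 and differ between panels. The WT and Cre points overlap in all 8 panels, with the widest spread relative to the mean in Dlg3 of the Cre group.

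Fold changes lay below 0 in 6 members and above 0 in 2, and their median log2 value was -0.03. Of the 2382 tested genes at least as abundant as Dlg1, 66.0% also lay below 0 (median -0.02), so the members' direction is near that of abundant genes in these libraries. Over all tested genes 49.8% lay below 0. Markers of glia lay the other way, with log2 fold changes above 0 for 9 of 9 microglia (median 0.17), 8 of 8 astrocyte (0.10) and 8 of 8 oligodendrocyte markers (0.15). Of the oligodendrocyte precursor markers 3 of 4 lay above 0 (median 0.02), and 0 of all these markers passed the threshold in edgeR. Their part in the members' fold changes was not tested. The median standard error was 0.04 for the members and 0.07 for all tested genes. In the authors' deposited table, which rests on these same 8 libraries, the members have log2 fold changes from -0.05 (Dlg2) to 0.01 (Dlg4) with p-values from 0.406 (Shank2) to 0.863 (Shank1).

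The order of the 8 transcripts in hippocampus was the same in WT and Cre and can be compared only per length. Divided by the merged length of the annotated exons, Shank1 was highest at 78.9 ± 2.45 CPM per kb in WT (79.3 ± 1.56 in Cre), followed by Dlg4 at 68.4 ± 1.86 (68.9 ± 1.59) and Shank3 at 49.4 ± 2.14 (48.8 ± 1.47). Dlgap1 had 44.8 ± 0.71 CPM per kb in WT and 43.6 ± 1.36 in Cre, and Dlg3 40.2 ± 0.76 and 39.4 ± 2.69. Then came Shank2 at 24.6 ± 0.77 (23.9 ± 0.52), Dlg2 at 16.8 ± 0.65 (16.2 ± 0.91) and Dlg1 at 9.16 ± 0.47 (8.93 ± 0.48). Over all 8 libraries, Dlgap1 (41.9 to 45.4) and Dlg3 (36.5 to 42.7) were the only neighbours in this order whose ranges overlapped.

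This order depended on the length used. Per kb of the longest coding transcript, Dlg4 led at 143 ± 3.89 CPM per kb in WT (144 ± 3.33 in Cre), then Dlgap1 at 112 ± 1.76 (109 ± 3.40), Shank1 at 84.4 ± 2.62 (84.9 ± 1.67), Shank3 at 61.6 ± 2.67 (60.9 ± 1.83) and Dlg3 at 47.4 ± 0.90 (46.4 ± 3.17). Dlg2 had 34.9 ± 1.36 (33.8 ± 1.89), Shank2 29.4 ± 0.92 (28.6 ± 0.62) and Dlg1 16.0 ± 0.82 (15.6 ± 0.84). Dlg1 was lowest and Shank3 above Dlg3 under both lengths. Which isoforms were present was not measured by the gene counts.

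**Figure D2:**
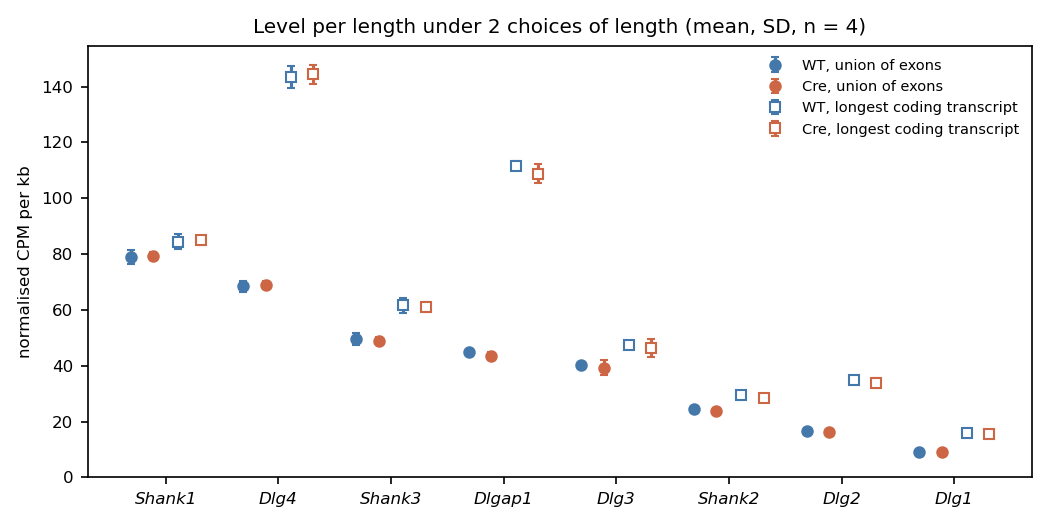
Level per length, in normalised CPM per kb, of each scaffold gene in WT and Cre (mean ± SD of 4 libraries); filled circles divide by the merged exons and open squares by the longest coding transcript. Dlg4 and Dlgap1 move up with the second length (Dlg4 from 68.4 to 143 in WT), while WT and Cre stay side by side for every gene.

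Within each family the shares kept the same order in every library, while single shares varied between libraries. Of the counts of the Dlg family, Dlg4 held 59.0% to 60.8% in WT and 59.98% to 61.2% in Cre, Dlg2 17.3% to 19.0% and 16.6% to 18.6%, Dlg3 15.2% to 15.9% and 14.3% to 16.2%, and Dlg1 6.09% to 6.90% and 6.09% to 6.79%. The groups overlapped in all 4 shares. The family's summed level was 1489 to 1535 CPM in WT and 1452 to 1543 CPM in Cre.

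In the Shank family, Shank1 held 53.1% to 54.4% of the counts in WT and 53.8% to 54.6% in Cre, and Shank3 28.5% to 29.8% and 28.7% to 29.5%. Shank2 held 17.11%, 17.13%, 17.07% and 17.07% in the WT libraries and 16.71%, 16.65%, 16.69% and 16.69% in the Cre libraries, the single share of the 7 whose groups did not overlap. The means were 17.1% ± 0.029 and 16.7% ± 0.027 (SD, n = 4 each). The spread between libraries was smaller than that of counting alone, which has an SD of 0.180 to 0.206 percentage points for this share in a library. The 95% Wilson intervals, which cover counting error only, overlapped between every WT library (lower bounds 16.7% to 16.8%) and every Cre library (upper bounds 17.05% to 17.1%). Overlap between single libraries cannot decide whether counting error covers the difference between the means of 4, so no conclusion is drawn from it. The shares of a family sum to 100%, so the 7 are not independent of each other. How often shares in other gene families lack overlap was not measured. On the separate scale of CPM, 2.31% of all genes had groups without overlap, and Shank2 was not among them. No test was made of these shares. The summed level of the 3 Shank genes was 1506 to 1616 CPM in WT and 1496 to 1579 CPM in Cre.

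**Figure D3:**
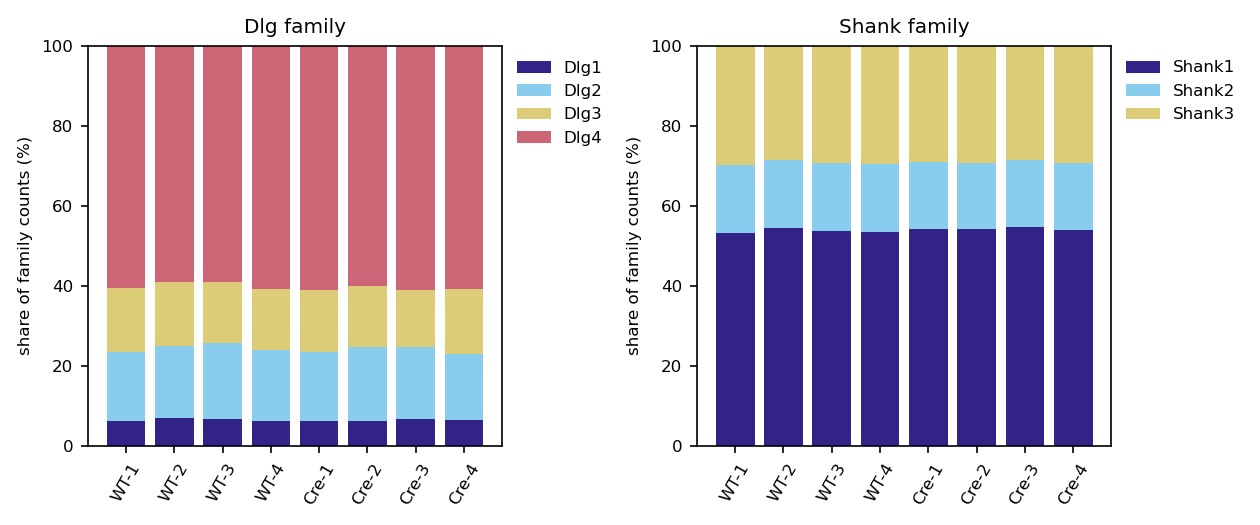
Share of each gene in the summed counts of its family, in percent, for each library (WT-1 to WT-4 and Cre-1 to Cre-4 are replicates 1 to 4); shares are of counts and are not corrected for length. Dlg4 holds 59.0% to 61.2% of the Dlg counts and Shank1 53.1% to 54.6% of the Shank counts over all 8 libraries.

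Across libraries the members shared a low point in Cre replicate 1, where all 8 lay below their own mean (median deviation -0.06 on the log2 CPM scale, from -0.11 for Dlg1 to -0.03 for Dlg4). In WT replicate 4 and in Cre replicate 4, 7 of 8 lay above their mean (medians 0.04 and 0.03). Cre replicate 1 also held the highest summed markers of glia, and the difference was not of that library alone: each Cre library exceeded each WT library in summed microglia and astrocyte markers, while oligodendrocyte markers overlapped. Microglia markers (9 of 9 with counts) summed to 552 CPM there, while WT libraries had 384 to 414 CPM and Cre replicates 2 to 4 had 418 to 431 CPM. Astrocyte markers (8 of 8) summed to 5965 CPM there, to 4952 to 5339 CPM in WT and to 5352 to 5658 CPM in Cre replicates 2 to 4. Oligodendrocyte markers (8 of 8) summed to 5184 CPM there, to 4021 to 4472 CPM in WT and to 4043 to 4844 CPM in Cre replicates 2 to 4. Inhibitory neuron markers (7 of 7) were lowest there, at 707 CPM against 763 to 821 CPM in the other 7 libraries. Excitatory neuron markers, mostly counts of Camk2a, stood at 7123 CPM there, inside the range of the rest. The part of these cell types in the members' values was not tested.

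All 8 members lay below their own mean in Cre replicate 1, so a fit without it raises their fold changes by construction. Without Cre replicate 1 the log2 fold changes were nearer to 0 for 6 members. They became -0.01 for Dlg1, -0.02 for Dlg2, -0.01 for Dlg3, -0.03 for Shank2, -0.003 for Shank3 and -0.02 for Dlgap1, and 0.02 for both Dlg4 and Shank1, with 0 members past the threshold in edgeR and 0 at an unadjusted p under 0.05. Leaving out WT replicate 1 instead gave -0.05 for Dlg1 and Dlgap1, -0.06 for Dlg2 and Shank2, and -0.02 for Dlg3 and Shank3. Shank1 became -0.01 and Dlg4 0.02 there, so 7 members lay below 0. Over all fits that each left out a library, 5 to 8 members lay below 0.

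**Figure D4:**
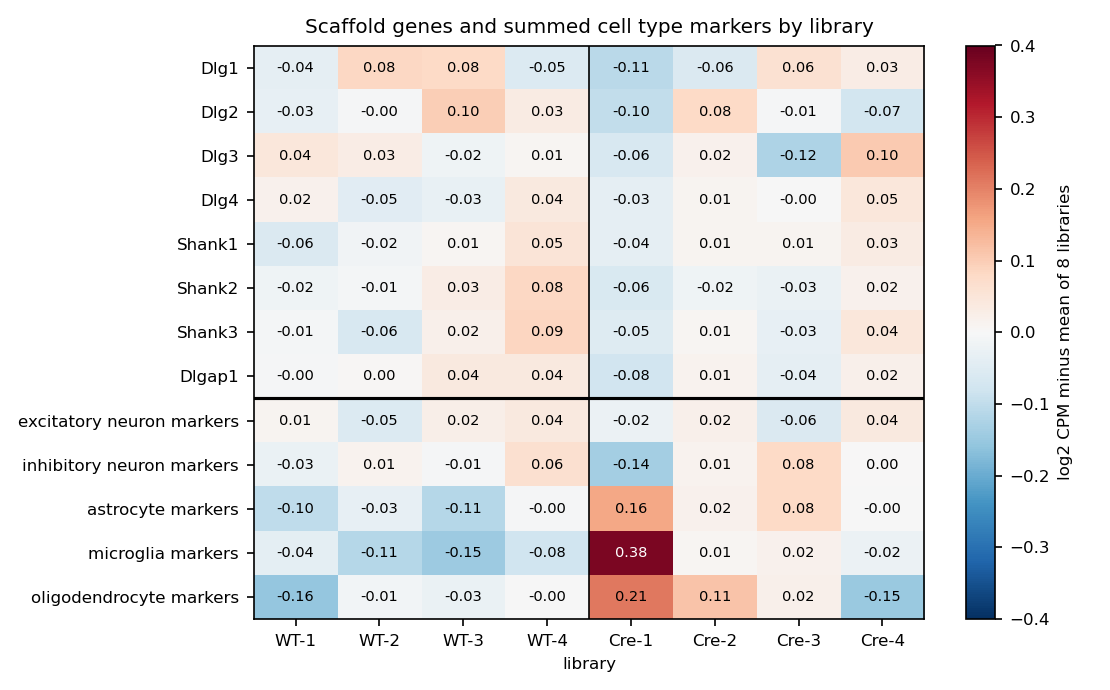
Deviation of each scaffold gene (top) and of the summed markers of 5 cell types (bottom) from the mean of the 8 libraries, in log2 CPM; red is above the mean and blue below. The column Cre-1 is below the mean for all 8 scaffold genes and for inhibitory neuron markers (-0.14), and above it for astrocyte (0.16), microglia (0.38) and oligodendrocyte markers (0.21).

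Partners of the scaffolds were read from 5 lists of 92 genes, all of them tested. Of these, 0 passed the threshold in either direction by edgeR's quasi-likelihood test, and 3 had an unadjusted p under 0.05, all lower in Cre, a share close to the 3.5% of all genes. Groups did not overlap in CPM for 2 of the 92 (Grm5 and Ntng1), a share close to the 2.31% of all genes. Fold changes lay below 0 in 63 of the 92 and above 0 in 29 (median -0.02). Of the tested genes at least as abundant as Dlg1, 66.0% lay below 0, and of all tested genes 49.8%. Many of the 92 were less abundant than Dlg1, so neither share is an exact match for them or for the lists below.

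Among 22 other scaffold and adaptor genes, 13 lay below 0 and 9 above (median -0.02). The smallest p belonged to Dlgap2, a relative of Dlgap1, whose level was 79.5 ± 2.36 CPM in the WT libraries and 75.1 ± 2.69 CPM in those of Cre (log2 fold change -0.08, SE 0.04), and to Iqsec1, which encodes an exchange factor for Arf6, with 312 ± 5.80 and 302 ± 5.75 CPM (-0.05, SE 0.03). Neither passed (adjusted p = 0.999 each by edgeR). Among 18 other MAGUK and Magi genes and their Lin7 partners, 10 lay below 0 and 8 above (median -0.02). The smallest p belonged to Tjp1, a tight junction scaffold gene, with 101 ± 4.47 CPM in WT and 107 ± 3.58 CPM in Cre. Its log2 fold change of 0.08 (SE 0.04) did not pass (adjusted p = 0.999 by edgeR).

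Among 18 glutamate receptor and auxiliary subunit genes, 11 lay below 0 and 7 above (median -0.01). Grm5, which encodes the metabotropic receptor mGluR5 that reaches the Shank layer through Homer, had 341 to 355 CPM in WT and 311 to 341 CPM in Cre. All WT libraries lay above all Cre libraries, by a margin of under 1 CPM between WT replicate 1 and Cre replicate 2. Its log2 fold change was -0.10 (SE 0.04, unadjusted p = 0.0171, adjusted p = 0.999 by edgeR). Grin1, the obligate NMDA receptor subunit gene, had 694 ± 21.8 and 671 ± 22.0 CPM (-0.05, SE 0.03).

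Among 18 genes of synaptic adhesion proteins and channels, of which some bind the scaffolds and others reach them only through a partner, 16 lay below 0 and 2 above (median -0.02). Ntng1, which encodes netrin-G1, an axonal surface protein whose postsynaptic partner binds the scaffolds, had 38.3 to 44.7 CPM in WT and 36.3 to 37.9 CPM in Cre, without overlap (log2 fold change -0.15, SE 0.05, unadjusted p = 0.0136, adjusted p = 0.999 by edgeR). Lrrtm2, which encodes a postsynaptic partner of neurexins, had 66.2 to 67.9 CPM in WT and 59.3 to 68.5 CPM in Cre, where Cre replicate 2 lay above all WT libraries (-0.10, SE 0.05, unadjusted p = 0.0475 by edgeR, adjusted p = 0.999). Without Cre replicate 1 the log2 fold changes were -0.08 for Grm5, -0.15 for Ntng1 and -0.08 for Lrrtm2, and their unadjusted edgeR p-values 0.0533, 0.0229 and 0.121. WT replicate 1, the library with high choroid plexus markers, also had the highest Ntng1 level (44.7 CPM). Without that library the log2 fold changes were -0.11 for Grm5, -0.10 for Ntng1 and -0.10 for Lrrtm2. Their unadjusted edgeR p-values were then 0.0193, 0.0584 and 0.0953. Lrrtm2 was also above 0.05 with DESeq2 (0.0616) and with edgeR's exact test (0.0644).

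Among 16 genes of enzymes that modify or turn over the scaffolds, 13 lay below 0 and 3 above (median -0.02). Mdm2, which encodes a ubiquitin ligase of PSD-95 better known for acting on p53, had 49.1 ± 1.53 and 52.7 ± 3.03 CPM (log2 fold change 0.10, SE 0.05). Cyld, a deubiquitinase gene, had 133 ± 2.69 and 126 ± 4.50 CPM (-0.08, SE 0.04). Neither passed (adjusted p = 0.999 each by edgeR).

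**Figure D5:**
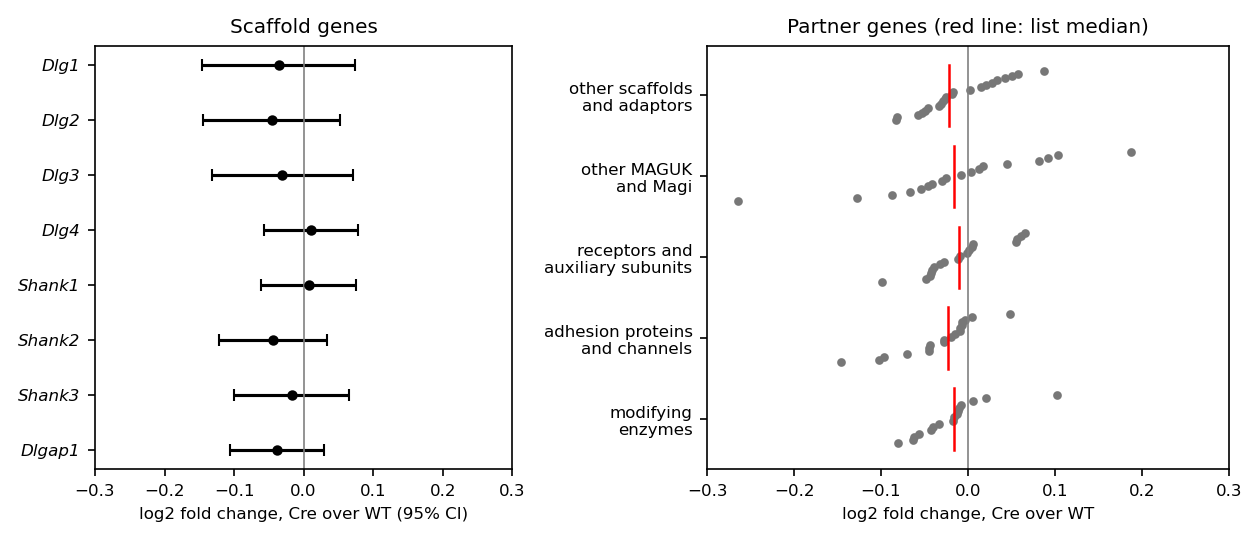
Left, log2 fold change of each scaffold gene, Cre over WT, with its 95% confidence interval from the edgeR fit. Right, log2 fold changes of the 92 partner genes in 5 lists, each point a gene and the red line the list's median; all 8 intervals on the left span 0, and the medians on the right lie between -0.02 and -0.01.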

How the data were processed

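Poly(A) RNA of 8 hippocampal libraries was sequenced with paired reads of 150 bases in a single lane, per the labels' protocols. The authors deposited whole-number counts per gene symbol. STAR 2.6.1d, featureCounts, edgeR 3.11 and GRCm38 are named per the submitters' processing notes, and the strand setting is not given in the sources used here. The authors' deposited table gives a log2 fold change and a p-value per gene, whose adjustment is not stated.

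Here edgeR 4.0.16 (R 4.3.3; filterByExpr, minimum count 10 and minimum total 15; TMM; quasi-likelihood test, 2-sided, no covariate) was fitted to all 15859 genes with Benjamini-Hochberg adjustment, threshold 0.05, and was checked on simulated data. The changes planted in those simulated data were larger than the members' differences, so the check does not cover differences of that size. Log2 CPM used a prior count of 2. Exact permutation tests used the 70 ways to divide the libraries. Alternatives were DESeq2 1.42.0, limma 3.58.1 (voom), edgeR's exact test, other size factors, no filter, a replicate block and leaving out each library. Lengths and sequences came from GENCODE mouse release M21.

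The members, the partner and marker lists and the tests were chosen with earlier results of these data known. Named genes are the members, the 2 genes of each list with the smallest p (1 of them is not reported here), and the 2 genes most like each member. No libraries agreed within counting noise (chi-square over its degrees of freedom 3.38 to 10.0 between libraries of a group), so all were kept.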

Additional observations from a re-analysis of the deposited data

How the results depend on the processing

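Under each of 16 alternatives, which included DESeq2 and limma voom, 0 scaffold genes passed the threshold, and 0 did so without adjustment of the p-values. Of 128 log2 fold changes of members under these alternatives, 122 kept their sign, and all lay between -0.08 and 0.03, with adjusted p of at least 0.891. The 6 that turned sign came from leaving out a library that was the highest or lowest of its group for that gene. Over the 8 fits that each left out a library, Dlg3 ran from -0.071 to 0.0042 (above 0 without Cre replicate 3), Dlg4 from -0.0019 (without WT replicate 2; -0.0014 without Cre replicate 4) to 0.026, Shank1 from -0.010 (without WT replicate 1; -0.00058 without Cre replicate 4) to 0.026, and Shank3 from -0.040 to 0.0092 (above 0 without WT replicate 4). The partner genes named in the report kept their sign in all these fits. The count of genes past the threshold over all genes was 5, and 4 to 6 when a library was left out.

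The replicate numbers are shared by both groups, but nothing in the labels says that they pair animals, so they were not taken as pairs. Deviations of same-numbered libraries correlated at 0.27, -0.16, -0.001 and 0.21, and those of libraries with different numbers at -0.33 to 0.19. So few values cannot decide whether the numbers pair animals. With the number as a replicate block 6 genes passed over all genes and 0 scaffold genes. Level per kb moved with the length chosen, as given with the levels. Shares of counts per kb moved too, by more than the SD between libraries, except that of Dlg1 in WT (Shank2 16.1% in WT and 15.7% in Cre). With a library left out, the mean share of Shank2 in counts ran from 17.09% to 17.10% in WT and from 16.68% to 16.70% in Cre. Every member had at least 1972 counts in each library.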

Other observations

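The 8 scaffold genes differed in how far they moved together over the 8 libraries. Pearson's r of log2 CPM ran from -0.27 (Dlg1 and Dlg4) to 0.85 (Shank2 and Dlgap1) over 28 pairs. Among Shank1, Shank2, Shank3 and Dlgap1, a group chosen after its values were seen, the 6 pairs had r from 0.58 to 0.85. The values of a library share its depth, its normalization and its mix of cells, so these are descriptions of 8 libraries.

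By the same measure, the genes most like each scaffold among 10529 with a mean log2 CPM of at least 3 were Myl6b and Necab1 for Dlg1, Elavl2 and Ccdc186 for Dlg2, Rgs7bp and Ptprj for Dlg3, and Parg and Aimp2 for Dlg4. For Shank1 they were Camk1g and Rxrb, for Shank2 Asb6 and Pip4k2b, for Shank3 Cby1 and Agap2, and for Dlgap1 Ints5 and Pacsin1. Pearson's r was 0.949 (Dlg1 and Necab1) to 0.988 (Shank2 and Asb6), Spearman's rho 0.833 to 1, and r without the 2 libraries farthest from the member's median 0.826 (Dlgap1 and Pacsin1) to 0.990 (Dlg2 and Ccdc186). These are the highest of many values, so no p is given.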
